A study of Mus musculus with 12 samples.

Results

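The comparison described here is that of mouse bone marrow-derived macrophages (BMDMs) exposed to IL-13 and DKK1 together with untreated BMDMs, across all genes and in both directions. Its members are 6 of the 12 bulk RNA seq libraries of the series, identified by their labels: 3 libraries labelled IL-13 + DKK1 and 3 labelled untreated. The remaining 6 libraries, 3 of IL-13 alone and 3 of DKK1 alone, are used to place the combined state beside each single ligand. BMDMs of all 4 groups were grown from the marrow of wild-type C57BL/6 mice (C57Bl/6J in the study's methods) 8 to 10 weeks old in macrophage colony-stimulating factor (M-CSF), so the untreated cells were also M-CSF-fed macrophages. The dose of IL-13 was 2 ng/ml and that of DKK1 30 ng/ml, both for 24 h, and the labels state no other doses for the combination. The labels number the replicates, but the sources used here do not say how many mice they came from, nor the sex of the mice. The p-values therefore measure the spread between these libraries, which may be technical.

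IL-13 is a type 2 cytokine that binds a receptor made of IL-4Rα and IL-13Rα1, and acts through JAK kinases and the transcription factor STAT6. In macrophages it is known to induce an alternatively activated state, marked by arginase 1 (Arg1), the mannose receptor (Mrc1) and secreted proteins of the Retnl and chitinase-like families. DKK1 is a secreted protein first known as an antagonist of canonical Wnt signaling through LRP5 and LRP6, and it is carried by platelets among other cells. The comparison addresses which transcriptional state macrophages reach when both ligands are present at once.

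The 6 libraries held 32304734 to 40917086 gene counts each, and 16306 of the 17723 genes in the table passed the filter on low counts. A principal component analysis of the 6 libraries placed 70% of the variance on the first component, on which the 3 untreated and the 3 IL-13 + DKK1 libraries lay at opposite ends. All 10 macrophage markers passed the filter, and Csf1r, the M-CSF receptor, stood at 5789 ± 99.2 CPM (counts scaled to an effective library of 1000000, mean ± SD, n = 3) in untreated and 4556 ± 40.2 CPM in IL-13 + DKK1 BMDMs. Sums of type I interferon-stimulated genes were higher in untreated replicate 1 (1516 CPM) than in the other untreated libraries (1201 and 1206 CPM). Within the IL-13 and DKK1 groups 1 library was likewise above the others (1765 against 1344 and 1386 CPM, and 6083 against 4978 and 5058 CPM). Irf7, Oasl1 and Isg15 of this list were highest in replicate 1 of those groups too. No library was left out.

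Co-treatment changed a large share of the transcriptome. Of 16306 genes tested, 855 rose (5.24%) and 1075 fell (6.59%) at an adjusted p below 0.05 and a log2 fold change beyond 1 in edgeR's quasi-likelihood test. The median log2 fold change over all genes was -0.01. Here "rose" and "fell" without further words mean both criteria, and a gene past the adjusted p alone is said to have changed beneath the fold threshold, where the adjusted p alone took in 26.0% of all genes upward and 23.5% downward. By more than 2 on the log2 scale 287 genes rose and 339 fell, 126 rose and 115 fell by more than 3, and 36 rose and 11 fell by more than 5. Among the called genes, the 3 libraries of one group lay entirely outside the range of the other for 841 that rose and 1024 that fell. The call rule itself makes this likely, so it adds no separate support. Over all tested genes, called or not, 29.5% were separated upward and 28.1% downward. When the test was set against the fold threshold itself (TREAT), 509 genes were higher and 465 lower, all of them among the genes above. Set beside it, IL-13 alone raised 757 genes (4.64%) and lowered 569 (3.49%), and DKK1 alone raised 845 (5.18%) and lowered 1054 (6.46%). These 3 comparisons share the same 3 untreated libraries. Of the 10 macrophage markers, Fcgr1 and Itgam rose with both ligands. Beneath the fold threshold 2 more were higher and 5 lower, Csf1r among the latter, and the median log2 fold change of the 10 was -0.15. Their summed level was 28270 to 28920 CPM in untreated and 34240 to 35290 CPM in co-treated libraries, but abundant genes weigh most in such a sum. The macrophage lysozyme gene Lyz2 alone held 1.71 to 1.80% of all counts in untreated and 2.24 to 2.33% in co-treated libraries.

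**Figure D1:**
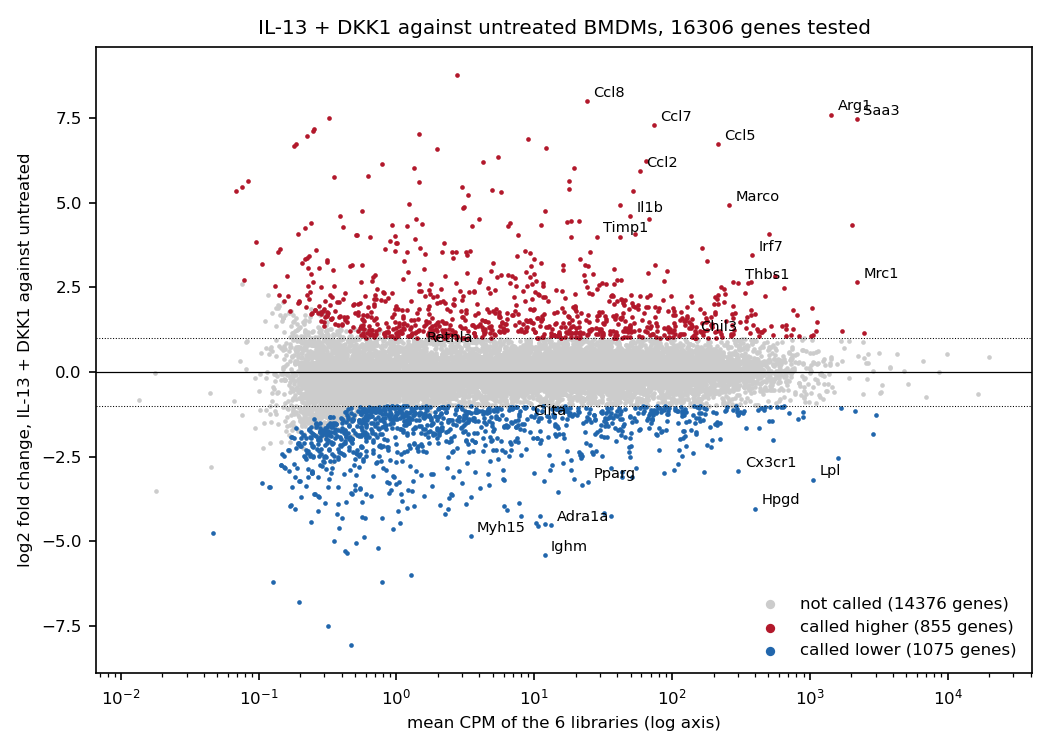
Log2 fold change of each tested gene in IL-13 + DKK1 against untreated BMDMs (vertical axis) by its mean level over the 6 libraries in CPM (horizontal log axis). Red points are the 855 genes called higher and blue points the 1075 called lower, dotted lines mark a log2 fold change of 1 in either direction, and Arg1 and Saa3 combine a high level with a log2 fold change above 7.

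Among genes with a mean of at least 100 counts, the largest increases were in acute-phase and chemokine genes and in Arg1. Saa3, a serum amyloid A protein of the acute phase, had 24.5, 23.5 and 25.3 CPM in the untreated libraries and 4529, 4104 and 4418 CPM under co-treatment. The groups were far apart, with a log2 fold change of 7.48 ± 0.29 (SE, adjusted p = 2.42e-15, edgeR's quasi-likelihood test). Its close relative Saa1 had 1 count in all untreated libraries together and 620 under co-treatment, a ratio of 599 with an exact 95% interval of 107 to 23700 that covers counting error only. Reads shared between Saa paralogs could not be resolved from the table. Cfb, complement factor B of the alternative pathway, rose from 0.128 ± 0.0361 to 10.8 ± 0.549 CPM (log2 fold change 6.35 ± 0.33). The other genes of this set of 10 were the chemokines Ccl8, Ccl7, Ccl12, Ccl5, Cxcl3 and Ppbp.

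Among receptor chains, kinases and regulators of the STAT6 pathway, 6 of 13 measured genes rose at the threshold used and none fell (3 did not pass the adjusted p, and the median log2 fold change was 0.26). Il4ra, the receptor chain shared by IL-4 and IL-13, had 199, 198 and 196 CPM in untreated and 1104, 1080.0 and 1117 CPM in co-treated libraries. The co-treated libraries were all above the untreated ones, by 2.48 ± 0.05 on the log2 scale (adjusted p = 1.51e-20, edgeR's quasi-likelihood test), and their level was near that of DKK1 alone (1129 ± 49.9 CPM), whereas IL-13 alone had 131 ± 9.58 CPM. Il13ra1, the chain that binds IL-13, stood near its untreated level: 21.9, 21.2 and 24.3 CPM in untreated and 23.9, 21.9 and 25.3 CPM in co-treated libraries overlapped (log2 fold change 0.08 ± 0.08, adjusted p = 0.447). That level lay between those of IL-13 alone (9.74 ± 0.945 CPM) and DKK1 alone (63.3 ± 3.78 CPM). Feedback inhibitors of cytokine signaling rose strongly. Socs1, which restrains JAK kinases, went from 1.82 ± 0.288 to 40.3 ± 0.284 CPM, above IL-13 alone (12.4 CPM) and DKK1 alone (7.19 CPM), and Socs3 went from 5.95 ± 1.42 to 101 ± 2.89 CPM, below DKK1 alone (201 CPM). Jak2 and Il2rg, a kinase and a shared cytokine receptor chain, rose by 1.67 and 2.05 on the log2 scale. Stat6 itself differed little (log2 fold change -0.11 ± 0.03).

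Alternative activation markers were mostly higher: 15 of 24 measured members rose and none fell at the threshold, with a median log2 fold change of 1.22. Without IL-13 + DKK1 replicate 1, Irf4 fell past it. With IL-13 alone 19 rose and none fell (median 2.74), and with DKK1 alone 6 rose and 6 fell (median -0.24). The summed level of these genes was 7853 to 8262 CPM with both ligands and 4521 to 5001 CPM with IL-13 alone, and Arg1 and Mrc1 made up most of it in the co-treated libraries.

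Arg1, which converts arginine to ornithine and urea, was scarce without treatment and abundant with both ligands. It had 6.85, 17.5 and 19.9 CPM in untreated and 2861, 2838 and 2855 CPM in IL-13 + DKK1 BMDMs, and the co-treated values were nearly equal while untreated replicate 1 was below the other untreated libraries. The log2 fold change was 7.60 ± 0.21 (SE, adjusted p = 7.95e-18, edgeR's quasi-likelihood test). IL-13 alone gave 624, 686 and 740.3 CPM and DKK1 alone 354, 284 and 362 CPM, all below each co-treated library. Co-treatment exceeded IL-13 alone by 2.06 ± 0.15 on the log2 scale (adjusted p = 2.4e-10, edgeR's quasi-likelihood test) and DKK1 alone by 3.10 ± 0.16 (adjusted p = 1.54e-12).

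Mrc1, an endocytic lectin of alternatively activated macrophages, followed the same order. It had 575, 623 and 612 CPM in untreated and 3494, 3918 and 3963 CPM in co-treated libraries, with no overlap (log2 fold change 2.65 ± 0.06, adjusted p = 4.22e-19, edgeR's quasi-likelihood test). It was 1778 ± 85.4 CPM with IL-13 and 989 ± 98.8 CPM with DKK1. For Mrc1 the DKK1 effect was larger with IL-13 than without it, by 0.38 ± 0.08 on the log2 scale (adjusted p = 0.00114), below the fold threshold used for calls. Cdh1, the adhesion molecule E-cadherin, rose from 0.277 ± 0.0559 to 11.2 ± 0.752 CPM, with 5.799 CPM under IL-13 and 0.373 CPM under DKK1.

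Of 19 alternative activation markers raised by IL-13 alone, 9 were lower by the call rule with both ligands than with IL-13 alone, against 6.10% of all genes, 2 (Arg1 and Mrc1) were higher, against 4.66%, and 8 passed in neither direction. Both comparisons used the same IL-13 libraries, and the 19 were picked for being high in them, which favours a fall. The shares over all genes, most of them not raised by IL-13, are therefore no like baseline. Retnla, the secreted protein FIZZ1, had 219, 345 and 327 CPM with IL-13 alone but 1.48, 1.98 and 2.16 CPM with both ligands, beside 1.34, 0.772 and 1.18 CPM untreated. The co-treated libraries were all slightly above the untreated ones, yet the difference did not pass the test (log2 fold change 0.77 ± 0.36, adjusted p = 0.0802, edgeR's quasi-likelihood test), and the log2 fold change of both ligands over IL-13 alone was -7.30 ± 0.17 (adjusted p = 1.85e-18). Mgl2, a galactose-type lectin, rose to 4.64 ± 0.965 CPM with both ligands from 0.752 ± 0.121 CPM, against 26.6 ± 6.38 CPM with IL-13 alone. Irf4, a transcription factor of alternative activation, had 5.099 ± 0.287 CPM untreated, 40.2 ± 3.89 CPM with IL-13 and 2.64 ± 0.294 CPM with both. Egr2, a zinc-finger factor induced by IL-4 and IL-13, had 14.2 ± 1.64, 124 ± 6.73 and 21.1 ± 2.702 CPM in the same groups. Chil3, a chitinase-like protein whose reads may be shared with Chil4, had like levels with both ligands and with IL-13 alone: it had 98.7, 91.99 and 86.99 CPM untreated, 206, 193 and 191 CPM with both ligands and 175, 213 and 212 CPM with IL-13. Chil3 was 1 of the called genes nearest the fold threshold (log2 fold change 1.09 ± 0.07, adjusted p = 9.75e-12), and it was not past the threshold under TREAT.

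Retnla and Pdcd1lg2 are shown because both were induced by IL-13 alone, both carry the STAT6-type motif close to the start of transcription, and their levels with both ligands differed. Pdcd1lg2, which encodes the checkpoint ligand PD-L2, kept 5.81 ± 0.631 CPM with both ligands, against 12.04 ± 1.92 CPM with IL-13 and 0.131 ± 0.0675 CPM untreated (log2 fold change over untreated 5.45 ± 0.26, adjusted p = 9.46e-14, edgeR's quasi-likelihood test). The motif searched was TTC and GAA with any 4 bases between them, which reads the same on both strands, and it occurred in 5.85% of all 32851 windows of 250 bases before a start in the RefSeq table (GRCm38.p6). Capitals mark the motif. In Retnla (chr16:48842419-48842518, plus strand) it began 145 bases before the start, and in Pdcd1lg2 (chr19:29410792-29410891, plus strand) 82 bases before it.
Retnla: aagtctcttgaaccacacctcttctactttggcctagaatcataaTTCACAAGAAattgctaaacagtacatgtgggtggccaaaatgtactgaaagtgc
Pdcd1lg2: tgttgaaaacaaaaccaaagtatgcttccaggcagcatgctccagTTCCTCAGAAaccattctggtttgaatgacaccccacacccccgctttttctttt
A match describes letters in the window only.

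**Figure D2:**
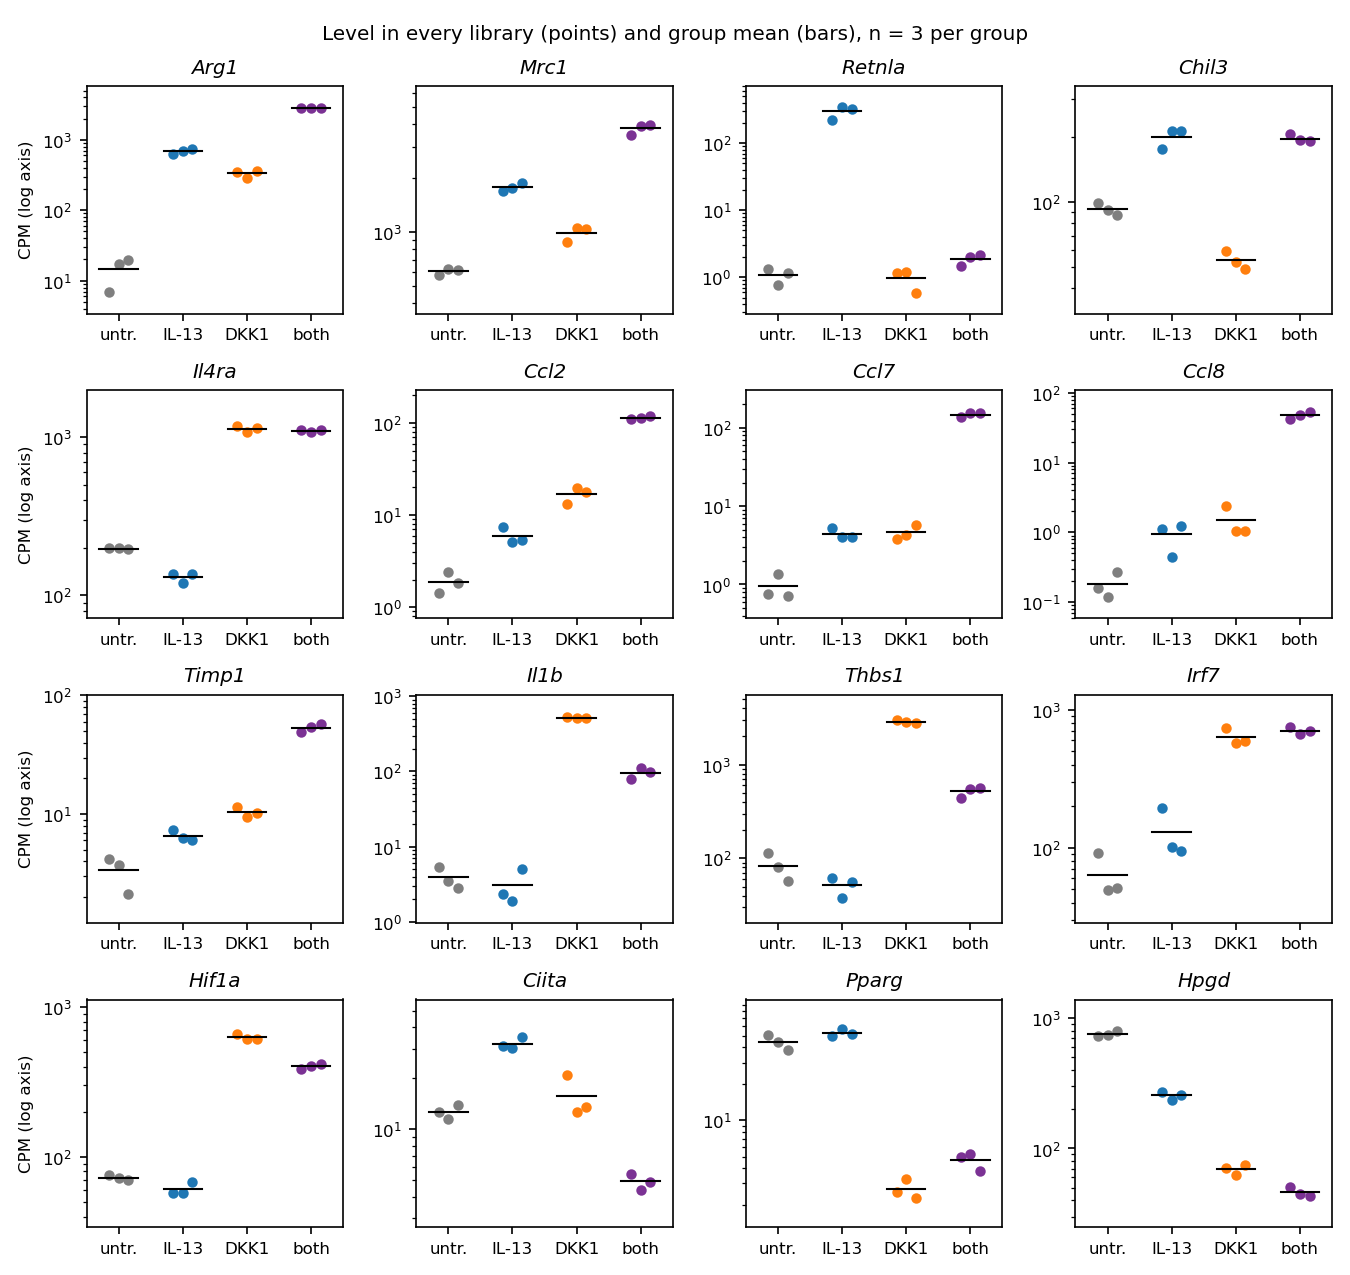
Level of 16 genes in CPM (vertical log axes) in each of the 3 libraries of the untreated, IL-13, DKK1 and IL-13 + DKK1 groups, with points for libraries and bars for group means. Arg1, Mrc1, Ccl2, Ccl7, Ccl8 and Timp1 are highest with both ligands, Retnla is high with IL-13 alone, and Il1b and Thbs1 lie between untreated and DKK1.

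Genes of arginine use changed around Arg1. Of 19 measured members of the arginine and polyamine list, 7 rose and 1 fell (median log2 fold change 0.36). Slc7a2, the cationic amino acid transporter that imports arginine, had 30.4, 32.1 and 38.8 CPM untreated and 336, 330.1 and 318 CPM with both ligands, a level shared with IL-13 alone (336 ± 19.7 CPM) and not seen with DKK1 (32.3 ± 2.36 CPM). The log2 fold change was 3.28 ± 0.07 (adjusted p = 9.51e-20, edgeR's quasi-likelihood test). Gatm, of creatine synthesis, rose from 67.5 ± 0.655 to 385 ± 34.2 CPM, and Ass1, which regenerates arginine from citrulline, from 3.23 ± 0.847 to 29.3 ± 3.56 CPM. Nos2, which competes with arginase for arginine, stayed scarce, with 2 counts in all untreated and 137 in all co-treated libraries, a ratio of 66.1 (exact 95% interval 18 to 552). Sms, spermine synthase, was the gene that fell, from 19.7 ± 1.18 to 8.096 ± 0.659 CPM.

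Chemokine genes held several of the largest increases. Of 23 measured CC and CXC chemokines, 17 rose and 4 fell, and the median log2 fold change was 2.66. The monocyte chemoattractant genes Ccl2, Ccl7, Ccl12 and Ccl8, neighbours on chromosome 11 (GRCm39), were low in the 3 other groups and higher in the co-treated libraries. A rule that picked them required no overlap with any library of the other groups. Their separation, told below, therefore adds no separate support. Reads shared among these related genes could not be separated from the table.

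Ccl2 (chr11:81926397-81928279), a ligand of CCR2, had 1.42, 2.405 and 1.85 CPM untreated and 109.5, 114 and 121 CPM with both ligands. IL-13 alone gave 5.99 ± 1.28 CPM and DKK1 alone 16.9 ± 3.21 CPM, so that no library of another group reached the co-treated range. The log2 fold change over untreated was 5.93 ± 0.15 (adjusted p = 2.01e-18, edgeR's quasi-likelihood test).

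Ccl7 (chr11:81936532-81938351), which also binds CCR2, had 0.749, 1.37 and 0.723 CPM untreated and 137, 153 and 153 CPM with both ligands. It had 4.43 ± 0.708 CPM with IL-13 and 4.64 ± 1.04 CPM with DKK1, again without overlap. Its log2 fold change was 7.30 ± 0.14 (adjusted p = 4.05e-20, edgeR's quasi-likelihood test), and the effect of DKK1 was larger with IL-13 than without it by 2.76 ± 0.29 (adjusted p = 2.2e-07).

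Ccl8 (chr11:82006007-82007625) had 0.161, 0.119 and 0.268 CPM untreated and 42.8, 47.9 and 53.3 CPM with both ligands, with 0.942 ± 0.4399 CPM for IL-13 and 1.504 ± 0.791 CPM for DKK1. The 3 co-treated libraries again stood apart from all others, and the log2 fold change of 7.998 ± 0.29 was the largest of the 4 (adjusted p = 7.2e-16, edgeR's quasi-likelihood test). Ccl12 (chr11:81992645-81994466) rose from 0.145 ± 0.0785 to 17.9 ± 2.89 CPM, with 3.23 CPM for DKK1 alone. Ccr2, the receptor of Ccl2, Ccl7 and Ccl12, moved the other way: it had 81.5, 79.8 and 81.6 CPM untreated and 16.9, 14.7 and 15.7 CPM with both, below IL-13 (61.8 CPM) and DKK1 (40.7 CPM).

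Neutrophil-attracting chemokines rose as well, as did the platelet chemokine Pf4. Cxcl3 went from 0.238 ± 0.0742 to 23.9 ± 4.80000 CPM, with 22.5 ± 3.54 CPM for DKK1 alone, and Cxcl2 from 8.34 ± 1.06 to 41.8 ± 3.496 CPM, with 42.2 ± 4.702 CPM for DKK1 alone. Ppbp, the platelet basic protein CXCL7, had 1.44, 2.32 and 1.34 CPM untreated and 133, 124 and 123 CPM with both, against 54.9 ± 4.58 CPM with DKK1. Pf4 (platelet factor 4, CXCL4) went from 188 ± 17.1 to 3834 ± 91.3 CPM, with 2317 ± 187 CPM for DKK1 alone. Ppbp and Pf4 were the 2 of 5 tested platelet markers that rose, and the summed level of these 5 was 186 to 220.2 CPM in untreated and 3866 to 4058 CPM in co-treated libraries. Of the markers that define the lineage, Itga2b stood at 1.41 ± 0.702 and 0.854 ± 0.274 CPM, and Gp1ba fell from 1.89 ± 0.525 to 0.816 ± 0.2798 CPM, a call lost without untreated replicate 2 or without IL-13 + DKK1 replicate 3. In bulk RNA, fewer cells of a type and less RNA per cell cannot be told apart, and any part of other cells in these changes was not tested.

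Ccl5, a T-cell and monocyte attractant, had 3.42, 4.75 and 3.96 CPM untreated, 422, 429 and 425 CPM with both, and 410.2 ± 30.2 CPM with DKK1 alone, beside 66.3 ± 13.4 CPM with IL-13 alone. The difference between both ligands and DKK1 alone lay within its error (0.05 ± 0.08, adjusted p = 0.676, edgeR's quasi-likelihood test). Ccl22, an attractant of CCR4-bearing cells, had 0.519 ± 0.276 CPM untreated, 8.97 ± 0.161 under IL-13, 4.199 ± 0.665 under DKK1 and 6.26 ± 0.635 with both. The 4 chemokines that fell were Ccl3, Cxcl12, Cxcl14 and Ccl4, of which Ccl3 went from 37.8 ± 2.87 to 6.83 ± 0.658 CPM (log2 fold change -2.47 ± 0.10). Of 10 measured chemokine receptors, 4 rose and 2 fell. Ccr1 rose from 5.71 ± 0.2701 to 132 ± 3.47 CPM. Cxcr2, the receptor of Ppbp and Cxcl3, had 3.88, 3.801 and 2.41 CPM untreated and 23.9, 17.02 and 18.4 CPM with both, above DKK1 alone (10.1 ± 0.281 CPM). Cx3cr1, the fractalkine receptor, fell from 535 ± 16.8 to 70.8 ± 0.269 CPM.

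Across all genes, 74 were higher and 60 lower with both ligands than in each of the 3 other groups by the same call rule. Of these, 42 and 30 had a mean of at least 100 counts over the 6 libraries and did not overlap with any other group. Separation from the other groups was thus a condition of entry for the 42 and 30. Against DKK1 alone, 525 genes (3.22%) were higher and 373 (2.29%) lower with both ligands, and against IL-13 alone 760 (4.66%) and 994 (6.10%). Among the 42 were Ccl2, Ccl7, Ccl8, Ccl12, Ppbp, Arg1, Mrc1, Msx3, Upp1 and Timp1. Msx3, a homeobox gene, had 0.113 ± 0.0625 CPM untreated, 1.86 ± 0.450000 under IL-13, 0.0423 ± 0.0367 under DKK1 and 8.42 ± 0.7201 with both. Upp1, uridine phosphorylase, had 0.171 ± 0.135, 0.639 ± 0.227, 1.53 ± 0.279 and 6.42 ± 0.591 CPM in that order. Timp1, a tissue inhibitor of metalloproteinases, had 4.17, 3.74 and 2.14 CPM untreated and 49.5, 54.1 and 57.1 CPM with both, while IL-13 gave 7.33, 6.34 and 6.001 CPM and DKK1 11.4, 9.54 and 10.2 CPM. No library of another group came near the co-treated ones (log2 fold change over untreated 4.000 ± 0.14, adjusted p = 4.55e-16, edgeR's quasi-likelihood test).

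Among the genes lowest with both ligands, some were not lowered by either ligand alone. Sdc1, the proteoglycan syndecan 1, had 50.4, 50.5 and 50.04 CPM untreated, 74.6, 71.7 and 78.5 under IL-13, 123, 99.9 and 102 under DKK1 and 20.03, 20.9 and 19.4 with both. Both single ligands were above untreated and the combination was below it, with a log2 fold change of -1.32 ± 0.07 (adjusted p = 4.53e-13, edgeR's quasi-likelihood test). Ciita, the master regulator of MHC class II transcription, had 12.8, 11.5 and 13.98 CPM untreated, 30.9, 30.2 and 35.1 under IL-13, 20.8, 12.6 and 13.5 under DKK1 and 5.47, 4.396 and 4.93 with both (log2 fold change -1.38 ± 0.15, adjusted p = 1.18e-07). Sh2d1b1, an adaptor of SLAM-family receptors, had 5.99 ± 0.902, 6.42 ± 0.107, 5.54 ± 0.718 and 1.74 ± 0.362 CPM. Sort1, the sorting receptor sortilin, and Adgre5, the adhesion receptor CD97, were also lower with both ligands than with either, and went from 239 ± 11.9 to 46.01 ± 1.40000 and from 77.2 ± 0.883 to 8.94 ± 0.709 CPM.

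Inflammatory genes of the LPS and NF-kB response were largely higher: 16 of 24 measured rose and 2 fell, with a median log2 fold change of 2.24. Il1b, the precursor of IL-1β, had 5.38, 3.53 and 2.81 CPM untreated and 79.4, 110.0 and 97.5 CPM with both ligands (log2 fold change 4.61 ± 0.18, adjusted p = 1.73e-15, edgeR's quasi-likelihood test). The co-treated libraries were nevertheless well below DKK1 alone (523, 510.4 and 510.1 CPM), by -2.43 ± 0.12 on the log2 scale (adjusted p = 7.74e-13). Of the 16 IL-1 family and inflammasome genes, 6 rose and none fell: Il1b, Il1a, the decoy receptor Il1r2, the signaling receptor Il1r1, the antagonist Il1rn and the accessory chain Il1rap. Without untreated replicate 3, 1 gene of this list fell. Il1r1 had 0.535, 0.416 and 0.322 CPM untreated and 5.55, 4.42 and 5.03 CPM with both. Il1rn had 11.9, 10.8 and 9.91 and 61.3, 70.2 and 64.3 CPM, above DKK1 alone (48.9 ± 4.01 CPM) by 0.42 ± 0.07 on the log2 scale. The inflammasome genes Nlrp3, Casp1 and Aim2 had log2 fold changes of -0.41, -0.26 and -0.35, and none passed the fold threshold.

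Tnf, the proinflammatory cytokine TNF, was lower beneath the fold threshold, with 20.9 ± 0.628 CPM untreated and 15.04 ± 1.14 CPM with both. The 2 genes that fell were Il10, an anti-inflammatory cytokine (4.88 ± 0.256 to 1.83 ± 0.0626 CPM), and Nfkbiz, a nuclear IκB protein (50.5 ± 3.33 to 13.3 ± 0.803 CPM). Of 12 NF-kB subunits and inhibitors, only Bcl3 passed the threshold, rising from 27.8 ± 2.404 to 65.8 ± 6.43 CPM. With 5.24% of all tested genes rising, 1 of 12 says little about the list. Relb, a subunit of the alternative pathway, had 61.5, 61.9 and 60.4 CPM untreated, 83.95, 95.97 and 93.3 with both and 125, 129 and 128 with DKK1. The groups did not overlap, but the log2 fold change of 0.57 ± 0.05 was under the fold threshold (adjusted p = 8.14e-10, edgeR's quasi-likelihood test). Rela differed by -0.02 ± 0.04. Complement genes rose in 8 of 20 cases and fell in 1, with C3, the central component, going from 101 ± 7.36 to 641 ± 18.2 CPM, beside 593 CPM under DKK1 and 473 CPM under IL-13 alone. The 1 complement gene that fell, Serping1, stood under 1 CPM in every group and lost its call without untreated replicate 2 or without IL-13 + DKK1 replicate 2 or 3.

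Type I interferon-stimulated genes were raised almost as a whole. Of 32 measured, 29 rose and none fell, with a median log2 fold change of 1.499. IL-13 alone raised 2 and lowered 1 of them, and DKK1 alone raised 30. The exceptions with both ligands were Ifit2, Irf9 and Cxcl10, with log2 fold changes of 0.81, 0.36 and -0.90. Ifit2 rose past the fold threshold without untreated replicate 1, and Cxcl10 fell past it without untreated replicate 2 or 3 or without IL-13 + DKK1 replicate 2. Irf7, a transcription factor of the interferon response, had 91.6, 48.99 and 51.3 CPM untreated, 746, 663 and 698 with both and 742, 574 and 592 with DKK1. The co-treated and untreated libraries were far apart in spite of the higher untreated replicate 1 (log2 fold change 3.45 ± 0.22, adjusted p = 1.59e-11, edgeR's quasi-likelihood test), and the difference from DKK1 alone lay within its error (0.14 ± 0.20, adjusted p = 0.62). Oasl1 and Zbp1, a regulator and a sensor of the antiviral response, rose from 3.97 ± 1.74 to 46.5 ± 4.79 and from 15.04 ± 1.87 to 136 ± 2.55 CPM. Isg15, a ubiquitin-like modifier, had 10.2, 7.99 and 7.45 CPM untreated and 52.6, 49.2 and 50.2 CPM with both.

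Promoter stretches of 4 of these genes are printed, chosen because they rose and match the pattern of the interferon-stimulated response element (ISRE). Other genes of the list that have a window lack a match, and a match describes letters in the window only. The pattern was searched on both strands as GAAA and GAAA with any 2 bases between them. This pattern occurred in 2.98% of all 32851 windows of 250 bases before a start (RefSeq, GRCm38.p6). Only 25 of the 32 genes of the list have a window in that table, under 80%, so a share over the list would be void and is not given. Capitals mark the motif. Isg15 (chr4:156200830-156200941, minus strand) holds overlapping matches from 78 to 57 bases before the start, Bst2 (chr8:71537542-71537647, minus strand) overlapping matches from 130 to 115 bases before it, Ifit1 (chr19:34640740-34640858, plus strand) a pair on the opposite strand between 104 and 76 bases before it, and Stat2 (chr10:128270248-128270330, plus strand) a match on the opposite strand at 222 to 213 bases before it.
Isg15: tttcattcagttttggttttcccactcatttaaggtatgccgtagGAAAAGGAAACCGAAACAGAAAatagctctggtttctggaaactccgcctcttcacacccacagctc
Bst2: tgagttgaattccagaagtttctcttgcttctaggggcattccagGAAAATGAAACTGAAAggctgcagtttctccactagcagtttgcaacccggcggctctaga
Ifit1: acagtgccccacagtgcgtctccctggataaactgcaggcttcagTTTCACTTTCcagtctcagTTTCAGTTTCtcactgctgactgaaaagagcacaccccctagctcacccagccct
Stat2: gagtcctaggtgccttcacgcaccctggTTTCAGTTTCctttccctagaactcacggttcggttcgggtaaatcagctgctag
Bst2, the restriction factor tetherin, rose from 127 ± 11.4 to 418 ± 2.14 CPM, Ifit1 from 13.3 ± 2.39 to 45.3 ± 0.485 CPM, and Stat2, a subunit of the factor that binds the ISRE, from 87.8 ± 6.16 to 266 ± 2.15 CPM.

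Hypoxia and glycolysis genes rose in 8 of 27 cases and fell in 2, beside 5.24% and 6.59% of all tested genes. Beneath the fold threshold a further 11 were higher and 4 lower (median 0.84). Hif1a, the oxygen-regulated transcription factor, had 75.3, 72.7 and 70.2 CPM untreated and 385, 407 and 414 CPM with both, below each DKK1 library (662, 612 and 609 CPM). Its log2 fold change over untreated was 2.47 ± 0.06 (adjusted p = 2.73e-19, edgeR's quasi-likelihood test). Ldha, lactate dehydrogenase A, went from 388 ± 15.3 to 1239 ± 61.6 CPM, above IL-13 (662 CPM) and DKK1 (814 CPM), and Slc16a3, a lactate exporter, from 45.5 ± 2.27 to 160.5 ± 3.505 CPM. Vegfa and Ndrg1, both known as hypoxia-responsive, were the 2 that fell, from 86.3 ± 9.29 to 38.6 ± 5.07 and from 35.6 ± 0.388 to 6.95 ± 0.864 CPM. Of 25 subunits of oxidative phosphorylation, none passed the fold threshold, 22 rose beneath it and none fell beneath it (median 0.35). Of 23 cholesterol synthesis genes, Mvd alone passed it, at a log2 fold change of 1.03 ± 0.08 that dropped below 1 without untreated replicate 1 or without IL-13 + DKK1 replicate 2, while 21 rose and 1 fell beneath it (median 0.57). Without untreated replicate 3, 3 genes of this list passed it.

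Matrix genes split. Of 29 measured, 7 rose and 4 fell, and the median was -0.03. Thbs1, the matricellular protein thrombospondin 1, had 113, 80.97 and 57.6 CPM untreated and 442, 555 and 567 CPM with both ligands. The co-treated libraries were above untreated (log2 fold change 2.64 ± 0.17, adjusted p = 9.93e-12, edgeR's quasi-likelihood test) and below all DKK1 libraries (2960.0, 2854 and 2779 CPM), by -2.46 ± 0.16 on the log2 scale (adjusted p = 4.79e-11). Vcan, the proteoglycan versican, was similar, with 4.97 ± 0.945 CPM untreated, 470.2 ± 48.4 with DKK1 and 43.8 ± 3.17 with both. Fn1, fibronectin, rose with IL-13 (427 ± 54.95 CPM) and reached 616 ± 74.2 CPM with both, from 99.6 ± 24.6 CPM. Mmp12, the macrophage elastase, had 812 ± 172 CPM with IL-13 alone but 167 ± 7.53 CPM with both, overlapping untreated (173 ± 17.5 CPM). Plau, urokinase, fell from 129.6 ± 6.09 to 39.01 ± 2.71 CPM, and Col1a1, a fibroblast collagen, differed by -0.55 ± 0.24 (adjusted p = 0.0594). Summed stromal markers were 85.8 to 177 CPM in untreated and 65.9 to 95.4 CPM in co-treated libraries, and their part in the collagen values was not tested. Of 18 repair growth factors, 2 rose and 2 fell, beside 5.24% and 6.59% of all tested genes. Pdgfb, 1 of those that fell, went from 192 ± 11.5 to 29.4 ± 3.37 CPM. The 2 that rose, Osm and Hbegf, had 17.98 ± 2.09 and 3.18 ± 0.445 CPM with both, and the Hbegf call was lost without untreated replicate 3.

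**Figure D3:**
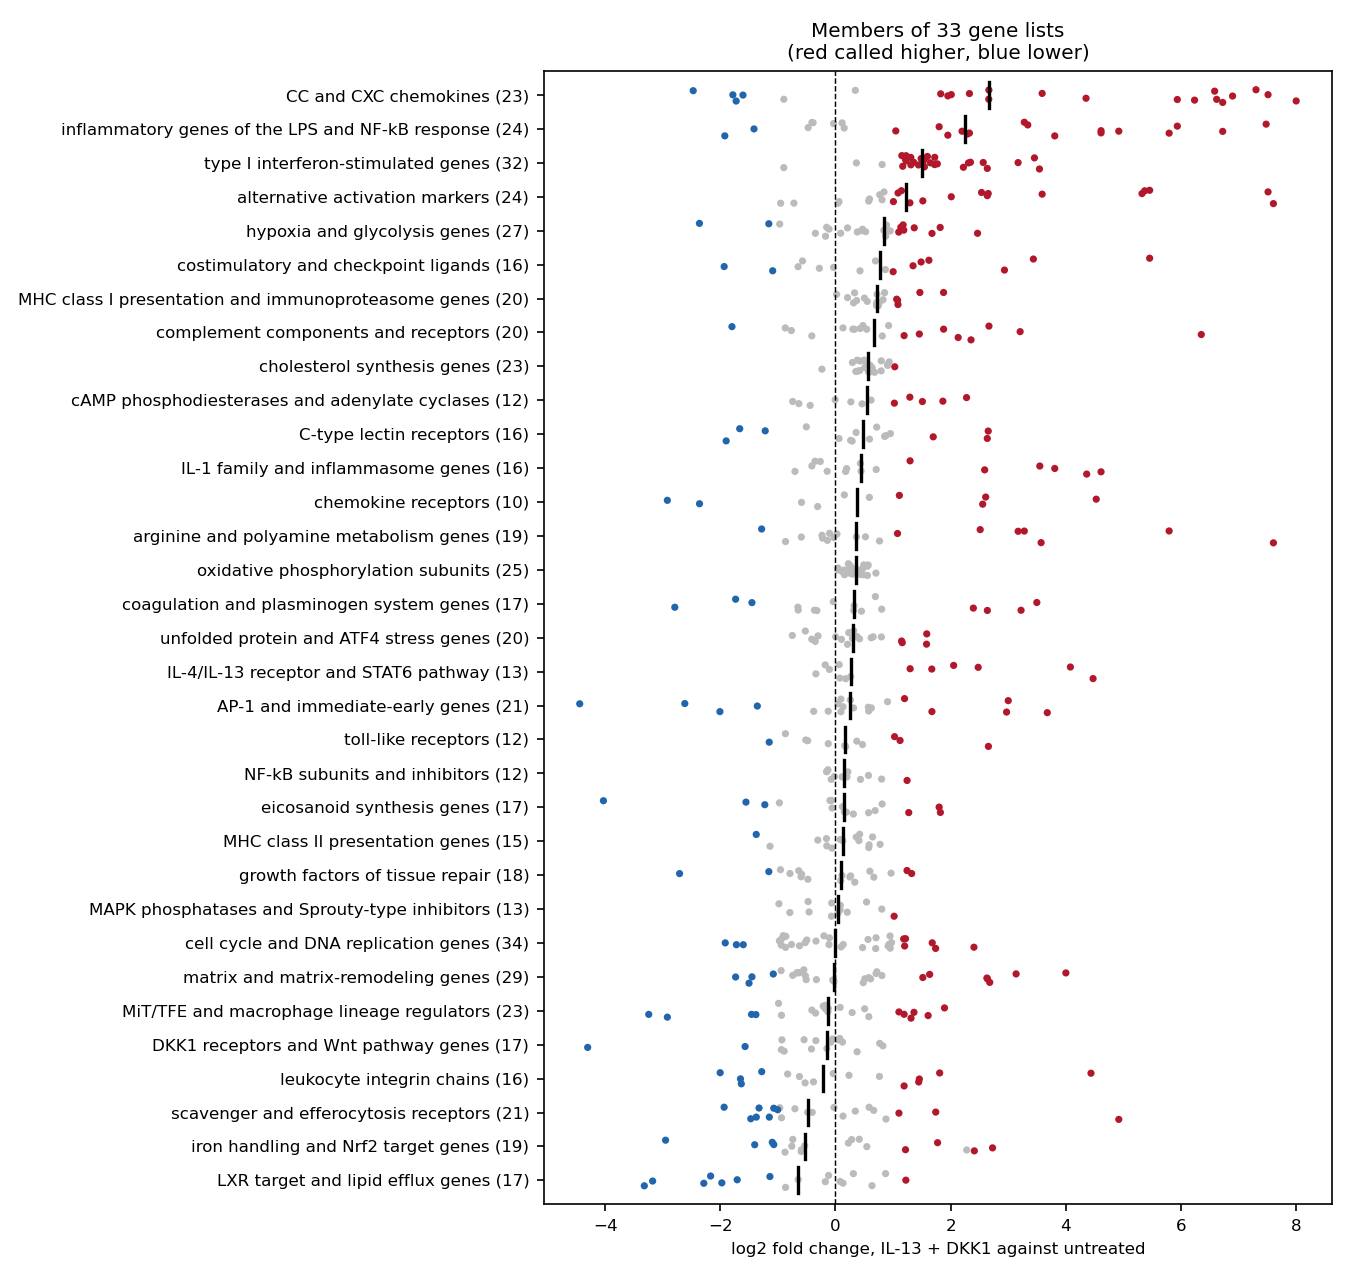
Log2 fold change of each measured member of 33 gene lists in IL-13 + DKK1 against untreated BMDMs (horizontal axis), 1 list per line with the number of genes tested. Red points were called higher, blue lower and grey not called, black bars are list medians, and the dashed line is the median of all genes (-0.01). The highest medians are those of chemokines (2.66) and inflammatory genes (2.24), and the lowest that of LXR target and lipid efflux genes (-0.65).

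Cell cycle genes moved in both directions. Of 34 measured, 6 rose and 3 fell, 9 more rose and 11 more fell beneath the fold threshold, and the median was -0.0047. With IL-13 alone 21 rose and none fell, and with DKK1 alone 1 rose and 17 fell. The 6 that rose with both ligands were Ccne1, Ccne2, Cdc6, Mcm2, Mcm5 and Rrm2, which serve the start of DNA replication or nucleotide supply. Ccne1, cyclin E1, had 2.78, 2.702 and 2.36 CPM untreated, 14.01, 12.7 and 14.8 with both, 17.7 ± 1.28 with IL-13 and 5.27 ± 0.688 with DKK1 (log2 fold change over untreated 2.40 ± 0.12, adjusted p = 2.52e-13, edgeR's quasi-likelihood test). Mcm5, a subunit of the replicative helicase, had 32.3 ± 2.41 CPM untreated and 74.2 ± 3.35 with both. The 3 that fell were Ccnb2, Cdc20 and Cenpf, which act in mitosis. Ccnb2, cyclin B2, had 62.4, 68.8 and 83.6 CPM untreated and 18.1, 19.2 and 19.6 CPM with both, above DKK1 alone (13.9 ± 2.17 CPM) and below IL-13 (82.3 ± 5.57 CPM). Mki67, the proliferation marker Ki-67, stood at 334 ± 64.04 and 184 ± 8.49 CPM (log2 fold change -0.86 ± 0.09, under the fold threshold). Without untreated replicate 1, 8 genes of the list fell in place of 3, Mki67 among them.

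**Figure D4:**
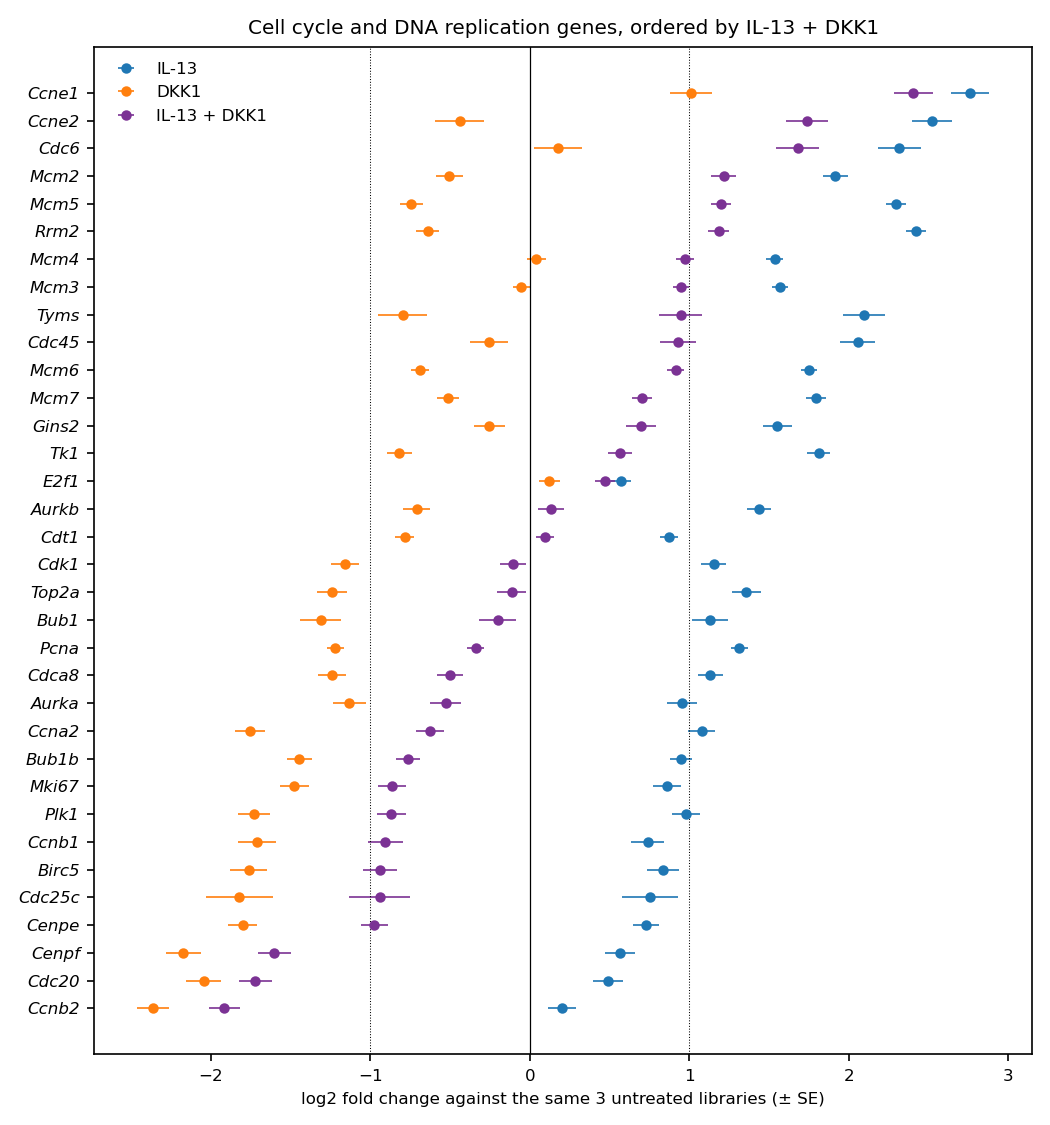
Log2 fold change against the same 3 untreated libraries (horizontal axis, ± SE) of 34 cell cycle and DNA replication genes under IL-13, DKK1 and both ligands, ordered by the change under both. Purple points run from Ccne1 (2.40) to Ccnb2 (-1.91) and lie between the blue points of IL-13 and the orange points of DKK1 for both of these genes, and dotted lines mark a change of 1.

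Regulators of macrophage lineage moved in both directions. Pparg, a nuclear receptor of lipid metabolism and alternative activation, had 50.4, 44.01 and 38.1 CPM untreated and 4.93, 5.26 and 3.79 CPM with both ligands, a fall to near the level of DKK1 alone (2.699 ± 0.514 CPM), while IL-13 alone kept 52.9 ± 3.39 CPM. The log2 fold change was -3.24 ± 0.12 (adjusted p = 8.38e-16, edgeR's quasi-likelihood test). Of the 23 genes in the list of MiT/TFE and lineage regulators, 6 rose and 4 fell. These counts include receptors, Fcgr1 and Csf2rb among those that rose and Cx3cr1 among those that fell. Tfec, an IL-4-inducible member of the MiT/TFE family, had 40.01, 45.6 and 44.1 CPM untreated and 156, 160.1 and 165 with both, above IL-13 (77.5 ± 5.25 CPM) and DKK1 (110.3 ± 4.33 CPM), whereas its relative Tfeb went from 104 ± 1.41 to 39.9 ± 2.28 CPM. Cebpa fell from 776 ± 9.22 to 283 ± 11.3 CPM and Cebpb rose from 76.8 ± 5.18 to 190.5 ± 1.39 CPM. Spi1, which encodes PU.1, differed by -0.17 ± 0.03.

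Of 17 LXR target and lipid efflux genes, 7 fell and 1, Fabp5, rose, with 4 more lower and 4 more higher beneath the fold threshold (median -0.65), and 2 rose without IL-13 + DKK1 replicate 1. Lpl, lipoprotein lipase, had 2106, 1891 and 1737 CPM untreated and 209.7, 222 and 204 CPM with both (log2 fold change -3.17 ± 0.07, adjusted p = 9.17e-20, edgeR's quasi-likelihood test), close to DKK1 (154 ± 10.04 CPM) and far from IL-13 (2785 ± 217 CPM). Abcg1 fell from 183 ± 27.4 to 46.6 ± 3.13 CPM, whereas Abca1, the other main cholesterol exporter, had 737 ± 41.6 and 1144 ± 83.6 CPM, a difference beneath the fold threshold. Hpgd, which inactivates prostaglandins, had 726, 737 and 799 CPM untreated and 51.0000, 44.7 and 43.1 CPM with both, a log2 fold change of -4.03 ± 0.07 (adjusted p = 1.38e-20), with 256 ± 18.1 CPM for IL-13 and 69.4 ± 6.55 CPM for DKK1 alone. In the same eicosanoid list Ptgs2, the inducible cyclooxygenase, rose from 1.09 ± 0.216 to 3.80000 ± 0.158 CPM, and of its 17 genes 3 rose and 3 fell, the fallen ones dropping to 1 without IL-13 + DKK1 replicate 1 or 2.

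Scavenger and efferocytosis receptors fell in 7 of 21 cases and rose in 3, with 4 more lower and 5 more higher beneath the fold threshold (median -0.48). Marco, a class A scavenger receptor, was 1 of the 3 that rose, beside Cd300lf and Cd163, with 17.8, 14.2 and 17.9 CPM untreated, 479, 456 and 578 with both and 485 ± 82.2 with DKK1 alone (log2 fold change 4.92 ± 0.13, adjusted p = 4.25e-18, edgeR's quasi-likelihood test). The receptors for dying cells Axl and Trem2 went from 191 ± 28.1 to 50.02 ± 5.599 and from 1268 ± 26.8 to 505 ± 9.98 CPM. Mertk, of the same family as Axl, had a log2 fold change of -0.94 ± 0.05, just under the threshold. Iron handling and Nrf2 target genes, taken as a single list, rose in 4 and fell in 4 of 19 cases. Of the iron genes, Slc40a1, the iron exporter ferroportin, went from 301 ± 13.9 to 38.9 ± 6.06 CPM, below either ligand alone. Tfrc, the transferrin receptor, rose from 92.2 ± 0.996 to 315 ± 15.3 CPM and Cp, the ferroxidase ceruloplasmin, from 11.1 ± 2.25 to 73.6 ± 6.04 CPM.

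Of 15 measured genes of class II antigen presentation none rose and Ciita fell, with 5 higher and 1 lower beneath the fold threshold. Over all tested genes 5.24% rose and 6.59% fell. IL-13 alone raised 7 of them. Cd74, the invariant chain, had 390.4 ± 39.6 CPM untreated, 1261 ± 178 with IL-13 and 610.0 ± 93.1 with both (log2 fold change over untreated 0.64 ± 0.11). H2-Ab1 had 112 ± 7.26, 296 ± 43.1 and 192 ± 23.99 CPM in the same groups. In 8 of 24 alternatives 2 class II genes fell in place of 1: without IL-13 + DKK1 replicate 1, without IL-13 replicate 1 or 2, and with the 6 libraries alone, limma-voom, the adjusted p alone, counts divided by 2 or the replicate block. Class I genes and the immunoproteasome rose in 5 of 20 cases, with 14 more beneath the fold threshold and none falling (median 0.73). Among 16 costimulatory and checkpoint ligands 7 rose and 2 fell, with 1 falling without IL-13 + DKK1 replicate 3. Cd274, which encodes PD-L1, had 15.5, 16.2 and 14.98 CPM untreated and 118, 122 and 116 CPM with both, above IL-13 (60.3 ± 1.47 CPM) and DKK1 (74.6 ± 6.25 CPM), with a log2 fold change of 2.93 ± 0.06 (adjusted p = 6.76e-20, edgeR's quasi-likelihood test). Itgax, which encodes CD11c, had 54.9 ± 3.72 CPM untreated, 1236 ± 204 under IL-13, 52.6 ± 1.62 under DKK1 and 150.3 ± 21.6 with both. Of 8 dendritic cell markers 5 were tested, of which IL-13 alone raised 3 and both ligands raised Ccr7 and lowered Clec9a, the latter call being lost without any 1 of untreated replicates 1 and 2 and IL-13 + DKK1 replicate 2. The summed level of these markers was 3.59 to 5.403 CPM in untreated, 18.3 to 19.4 CPM in IL-13 and 5.85 to 7.14 CPM in co-treated libraries. The defining markers Zbtb46 and Flt3 stood at 0.428 ± 0.122 and 0.386 ± 0.189 CPM untreated, 1.24 ± 0.245 and 0.0562 ± 0.0546 CPM with IL-13, and 0.5501 ± 0.229 and 0.153 ± 0.133 CPM with both. The part of dendritic cells in the class II and Itgax values was not tested.

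Intracellular signaling genes changed in part. Of 12 cAMP phosphodiesterases and adenylate cyclases, 5 rose, all of them phosphodiesterases, and none fell. Pde4b, a cAMP-degrading enzyme, had 17.9, 18.9 and 14.9 CPM untreated and 75.3, 88.01 and 86.5 CPM with both, below DKK1 alone (111 ± 2.89 CPM), with a log2 fold change of 2.28 ± 0.08 (adjusted p = 1.99e-16, edgeR's quasi-likelihood test). Of 21 AP-1 and immediate-early genes 5 rose and 4 fell. Fosl2, an AP-1 subunit, had 49.1, 47.5 and 47.7 CPM untreated and 149, 154 and 158 with both, with no overlap, and Jun differed by 0.13 ± 0.05. Egr1 and Nr4a1 fell from 22.8 ± 3.08 to 8.86 ± 3.71 and from 8.20000 ± 1.08 to 1.33 ± 0.0303 CPM. Dusp4, a MAP kinase phosphatase, had 25.1 ± 1.195 CPM untreated, 103 ± 4.62 under IL-13, 4.67 ± 0.209 under DKK1 and 50.9 ± 1.601 with both, at a log2 fold change of 1.02 ± 0.05 that fell below 1 without untreated replicate 3. Myc, a growth regulator, had 19.03 ± 2.73 CPM untreated, 32.99 ± 1.21 under IL-13, 2.54 ± 0.295 under DKK1 and 19.6 ± 1.72 with both (log2 fold change 0.04 ± 0.09). Of 17 DKK1 receptors and Wnt pathway genes none rose and 2 fell, Fzd4 and the scarce Dkk2. Over all tested genes 5.24% rose and 6.59% fell, so such small counts say little about the list. Without untreated replicate 3, 4 of the list fell. Lrp6, a DKK1 receptor, had 234 ± 11.9 and 304 ± 12.3 CPM, and Ckap4, another protein known to bind DKK1, had 46.99 ± 2.43 and 45.4 ± 2.96 CPM.

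The largest decreases, by the filters used for the largest increases, were in Ighm, Myh15, Adra1a, Dgkg, Nptx1, Adgre4, Col4a5, Fcrl1, Kcnj2 and Ramp1. Their log2 fold changes ran from -5.41 to -4.06. Adra1a, the α1A adrenergic receptor, had 28.8, 22.9 and 24.03 CPM untreated and 0.827, 1.41 and 1.001 CPM with both, below IL-13 (11.6 ± 0.971 CPM) and DKK1 (3.68 ± 0.712 CPM). The log2 fold change was -4.53 ± 0.16 (adjusted p = 8.59e-16, edgeR's quasi-likelihood test). Ramp1, a subunit of the receptor for calcitonin gene-related peptide, had 12.1 ± 0.411 and 0.731 ± 0.414 CPM, and Kcnj2, an inward-rectifier potassium channel, 61.2 ± 1.98 and 3.43 ± 0.573 CPM. Ighm, the immunoglobulin μ heavy chain, had 18.9, 26.1 and 24.8 CPM untreated and 0.502, 0.642 and 0.474 CPM with both. Ighm is a B cell marker. The 3 B cell markers tested, of 7 in the list, summed to 23.4 to 30.7 CPM in untreated and 3.90 to 4.22 CPM in co-treated libraries. Of the 3, Cd79a also fell, at 0.474 ± 0.242 and 0.151 ± 0.05203 CPM, a call lost without untreated replicate 1 or without IL-13 + DKK1 replicate 1 or 2, while Cd79b stood at 3.89 ± 0.352 and 3.38 ± 0.203 CPM. The part of B cells in the Ighm value was not tested.

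Of 10 neutrophil markers, Cxcr2 rose and Retnlg and Ly6g fell, the Ly6g call being lost without any 1 of untreated replicates 2 and 3, IL-13 replicate 2 and IL-13 + DKK1 replicates 2 and 3. The summed level of the 10 was 678 to 756 CPM in untreated and 710.1 to 874 CPM in co-treated libraries. Cd4 was the only gene tested of 10 T and NK cell markers, at 9.26 ± 1.56 and 5.42 ± 0.905 CPM. Kit fell from 1.22 ± 0.448 to 0.264 ± 0.0717 CPM, the sole gene tested of 6 mast cell and basophil markers.

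Whether the effects of the ligands add up on the log2 scale was tested by the interaction, the effect of DKK1 with IL-13 minus its effect without IL-13. It was called for 754 of the 16306 genes (4.62%), and for 187 by TREAT. For Arg1 the interaction was -2.45 ± 0.24 (adjusted p = 6.07e-08, edgeR's quasi-likelihood test), so that Arg1 differed from untreated by less on the log2 scale than the sum of the single effects although its level was the highest of all groups. For Ccl7, Ccl8, Ccl2 and Timp1 it was positive, at 2.76, 2.66, 1.10 and 1.40. For Retnla it was -7.13, for Il1b -2.11 and for Thbs1 -1.76. Ccl7, Ccl8, Ccl2 and Timp1 were among the genes picked for being highest with both ligands, which favours a positive value.

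**Figure D5:**
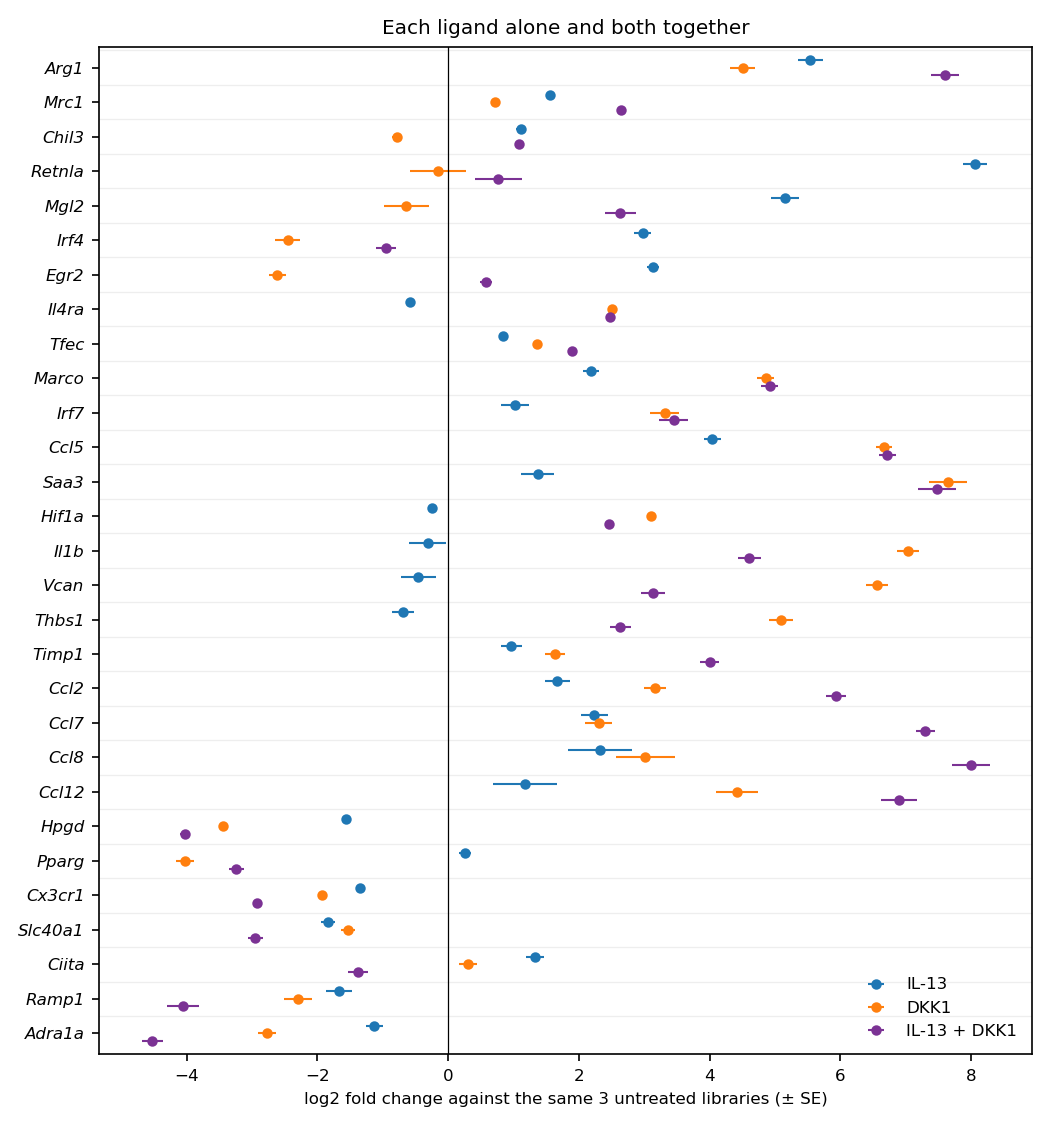
Log2 fold change (horizontal axis, ± SE) of 29 genes against the same 3 untreated libraries under IL-13 (blue), DKK1 (orange) and both (purple). For Ccl7 the combined change (7.30) exceeds both single changes, for Retnla it is 0.77 where IL-13 alone reaches 8.06, for Il1b it lies between IL-13 and DKK1, and for Ciita it is below 0 where neither ligand alone is.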

How the data were processed

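BMDMs were sequenced by stranded total RNA seq after ribosomal RNA depletion. The submitters' processing notes name FastQC 0.11.9, STAR 2.7.6a, DESeq2 1.30.0 and GRCm39. The authors deposited raw counts per gene. The methods mention filtered counts. The filter's rule, the annotation and the strand setting were not given in the sources used here, and every gene of the table reached at least 11 counts in some library. Reads shared by paralogs or overlapping genes therefore could not be resolved. Low counts were mostly even, so counting intervals may be too narrow, and they cover counting error only.

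Counts were fitted with edgeR 4.0.16 in R 4.3.3 (quasi-likelihood test, filterByExpr with minimum 10 and total 15, TMM, 1 mean per group over all 12 libraries), with Benjamini-Hochberg adjustment over all 16306 genes. SE was the log2 fold change divided by the root of F. Calls required an adjusted p below 0.05 together with a log2 fold change beyond 1 in either direction. The procedure was tested on simulated data. Alternatives used DESeq2 1.42.0, limma 3.58.1 (voom), TREAT, other scalings and filters, counts divided by 2, 6 libraries only, a replicate block and the omission of each library.

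The members and gene lists were chosen with earlier results of these data known. Genes named were those of the study's text, the 10 largest changes each way among genes with a mean of at least 100 counts, up to 4 called members each way and anchor genes of each list, and genes called against all 3 other groups. Some genes (Aim2, Ass1, Atf4, Bst2, Casp1, Cd4, Cd79b, Cdh1, Chil4, Ckap4, Cxcl2, Egr2, Gatm, H2-Ab1, Ifit1, Ifit2, Il1rap, Irf4, Irf9, Jak2, Mcm5, Mmp12, Myc, Nlrp3, Rrm2, Stat2) were named after their values were seen. Lists are described by counts and medians, with no set test. Over all tested genes 5.24% rose and 6.59% fell with both ligands. A few called members of a list can lie near these shares, and then say little about the list.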

Additional observations from a re-analysis of the deposited data

Results flagged for a closer look

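For 17 genes, among those named in the study's text or those highest or lowest with both ligands, DKK1 had a different effect in cells that also received IL-13 than in cells that did not. The highest and lowest were picked on the same co-treated libraries, which favours a large interaction, so their p-values are no independent support. Over all tested genes the interaction was called for 754 of 16306 (4.62%). The values are log2 differences of differences (± SE) with adjusted p-values (quasi-likelihood test of edgeR over all 12 libraries). They were negative for Retnla (-7.13 ± 0.60, adjusted p = 7.35e-09), Ccl5 (-3.99 ± 0.16, adjusted p = 2.19e-13), Ccl22 (-3.53 ± 0.30, adjusted p = 9.44e-09), Ciita (-3.01 ± 0.20, adjusted p = 2.48e-10), Sdc1 (-3.00 ± 0.09, adjusted p = 7.67e-15) and Arg1 (-2.45 ± 0.24, adjusted p = 6.07e-08). They were also negative for Marco (-2.13 ± 0.16, adjusted p = 1.98e-09), Il1b (-2.11 ± 0.31, adjusted p = 1.94e-05), Sh2d1b1 (-1.78 ± 0.22, adjusted p = 2.73e-06), Thbs1 (-1.76 ± 0.23, adjusted p = 3.41e-06), Il1r1 (-1.48 ± 0.41, adjusted p = 0.0102) and Sort1 (-1.002 ± 0.06, adjusted p = 4.96e-11). They were positive for Msx3 (3.51 ± 0.78, adjusted p = 0.00169), Ccl7 (2.76 ± 0.29, adjusted p = 2.2e-07), Ccl8 (2.66 ± 0.71, adjusted p = 0.00766), Timp1 (1.40 ± 0.20, adjusted p = 1.59e-05) and Ccl2 (1.10 ± 0.24, adjusted p = 0.00118). In Sdc1 and Ciita, the 3 co-treated libraries were below the untreated range while the 3 IL-13 libraries were above it. With 3 libraries per group, no test for single outlying libraries was made.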

How the results depend on the processing

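The counts of genes moved by over 1.5 times under 2 of the alternatives. With TREAT, 509 genes were higher and 465 lower than untreated, 187 had an interaction, 277 differed from DKK1 and 888 from IL-13. With the adjusted p alone, these counts were 4247, 3828, 4282, 6408 and 7242. Leaving out 1 library at a time gave 824 to 884 genes higher, 951 to 1107 lower, 661 to 801 with an interaction, 847 to 930 different from DKK1 and 1639 to 1765 different from IL-13. DESeq2 called 855 higher and 1061 lower, of which 848 and 1045 were shared. Over all genes, deviations of same-numbered untreated and IL-13 + DKK1 libraries had correlations of 0.043, -0.0134 and 0.0185. Such a correlation cannot show whether the numbers pair the libraries for some genes. Irf7, Oasl1 and Isg15 were highest in replicate 1 of each of the 4 groups. With the replicate block 856 genes were higher and 1072 lower, 843 and 1053 of them shared. Of 175 named genes, 134 kept direction and side of the threshold in each alternative run, and 3 changed sign without being called in any of those fits. Myc, at 0.04, was -0.0022 with upper-quartile factors, -0.0201 with library size only, and -0.0573 to 0.1514 when 1 library was left out. Mmp12 ranged from -0.1044 to 0.0363 and the scarce Zbtb46 from -0.027 to 0.5603 when 1 library was left out. The cause was not tested. Dusp4 and Mvd were under the fold threshold when scaled by upper quartiles or by library size only, Dusp4 also with a filter of CPM 1 in 3 libraries, Ly6g lost its call with no filter, and Irf4 and Mertk passed the fold threshold with library size only. Cd163, Egr1, Fzd4, Il10, Retnlg and Vegfa each lost their call in 1 of 24 alternatives. Counts under about 20 per gene limit the smallest levels, since 76% of counts from 1 to 20 were even against 51.6% above 1000.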

Other observations

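Among 16 leukocyte integrin chains, 5 rose and 4 fell, beside 5.24% and 6.59% of all tested genes. Itga1, the α1 chain of a collagen receptor, had 1.28, 1.57 and 1.69 CPM untreated and 33.1, 30.8 and 34.6 CPM with both ligands, and 48.95 ± 4.02 CPM with DKK1 alone. Itgb3, the β3 chain of the vitronectin receptor, had 5.25 ± 0.767 CPM untreated, 30.1 ± 2.202 under IL-13, 1.29 ± 0.237 under DKK1 and 14.3 ± 1.94 with both. Itga4 and Itga6 fell from 286 ± 14.6 to 91.95 ± 6.54 and from 654 ± 10.9 to 208 ± 4.01 CPM. Of 17 coagulation and plasminogen genes, 4 rose and 3 fell. F10, coagulation factor X, rose from 2.16 ± 0.1595 to 20.2 ± 2.02 CPM, and F7, factor VII, from 0.931 ± 0.214 to 4.899 ± 0.987 CPM.

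Of 12 toll-like receptors, 3 rose and 1 fell, beside 5.24% and 6.59% of all tested genes. Tlr5, the flagellin receptor, rose from 1.096 ± 0.227 to 6.88 ± 1.41 CPM and Tlr13 fell from 459.5 ± 16.1 to 207 ± 13.1 CPM, with 8.04 ± 0.252 and 202 ± 4.69 CPM under DKK1 alone. Of 16 C-type lectin receptors, 3 rose and 3 fell, beside the same shares of all genes, with 1 falling without IL-13 + DKK1 replicate 2. Clec4e, the receptor Mincle, rose from 18.5 ± 0.591 to 60.04 ± 2.09 CPM, and Clec12a, an inhibitory receptor, fell from 521 ± 10.9 to 165 ± 3.196 CPM. Of 20 unfolded protein and ATF4 stress genes, 4 rose and none fell, among them Sdf2l1, a chaperone cofactor of the endoplasmic reticulum, from 58.6 ± 2.83 to 176 ± 5.71 CPM, while Atf4 had 126 ± 4.102 and 136 ± 2.05 CPM.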
